A study of Mus musculus with 4 samples.

Results

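The genes described here are 10 regulators of transcription in haploid male germ cells, led by Crem, and they were picked by name from the 25965 genes of the deposited table, where all 10 were found. Round spermatids, haploid cells that have finished meiosis but not begun to elongate, were isolated by cell sorting from testes of ICR mice, an outbred stock, and their RNA was amplified with Smart-seq2, a full-length protocol for very small inputs. The series compares 2 libraries of genotype Wfdc15a+/- (heterozygous, the controls) with 2 libraries labelled Wfdc15a-/- (knockout), so that every library comes from mice with at least 1 altered allele. The sources used here do not give ages, the sort gate, the altered part of Wfdc15a or whether replicates are separate animals. P-values therefore measure only the spread between these samples, and that spread may be technical. The wild-type controls that the design names were not analysed here.

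CREM is a transcription factor of the cAMP-responsive family. In round spermatids its activator forms bind cAMP response elements (CREs) in the promoters of genes needed for sperm assembly, and mice without it stop spermatogenesis at this stage. In these cells CREM works with FHL5, a LIM-only protein also called ACT, which supplies the activating function without phosphorylation of CREM, and a testis form of the kinesin KIF17 carries FHL5 out of the nucleus. The general machinery is specialised as well. TBPL1 (also called TRF2 or TLF) is a relative of the TATA-binding protein TBP, GTF2A1L (ALF) is a germ cell form of the large TFIIA subunit, and TAF7L is an X-linked germ cell relative of the TFIID subunit TAF7. RFX2 binds X-boxes in promoters of cilium and flagellum genes, SOX30 is needed to switch on genes after meiosis, and SOX5 is a SOX factor with a short form in the testis.

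Promoters were read in RefSeq (build GRCm38.p6, the same assembly as mm10) over the 250 bases before the annotated start, where 9 of the 10 genes had an entry. The windows of Fhl5 and Kif17, the members with the widest group differences, and of Gtf2a1l are shown because each held a CRE-type or X-box sequence, and that of Tnp1, a transition protein gene known to need CREM, is shown for comparison. Capitals mark the motif matches, and each sequence runs 5′ to 3′ on the strand of its gene. They lie at chr4:25242853-25243102 (minus strand, Fhl5), chr4:138262001-138262250 (plus strand, Kif17), chr17:88668410-88668659 (plus strand, Gtf2a1l) and chr1:73015900-73016149 (minus strand, Tnp1).
Fhl5: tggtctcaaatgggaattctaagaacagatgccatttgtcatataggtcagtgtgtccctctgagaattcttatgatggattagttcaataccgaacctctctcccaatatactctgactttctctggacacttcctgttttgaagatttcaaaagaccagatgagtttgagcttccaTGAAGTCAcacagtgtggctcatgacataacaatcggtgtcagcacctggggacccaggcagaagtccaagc
Kif17: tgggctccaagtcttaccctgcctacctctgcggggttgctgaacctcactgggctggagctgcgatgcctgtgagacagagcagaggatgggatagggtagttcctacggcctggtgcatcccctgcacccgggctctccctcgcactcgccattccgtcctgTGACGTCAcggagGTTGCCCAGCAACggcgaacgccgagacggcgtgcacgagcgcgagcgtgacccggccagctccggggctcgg
Gtf2a1l: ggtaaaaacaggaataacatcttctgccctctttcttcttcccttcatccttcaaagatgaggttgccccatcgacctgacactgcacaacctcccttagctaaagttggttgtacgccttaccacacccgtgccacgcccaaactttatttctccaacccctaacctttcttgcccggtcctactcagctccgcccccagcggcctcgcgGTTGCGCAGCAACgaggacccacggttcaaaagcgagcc
Tnp1: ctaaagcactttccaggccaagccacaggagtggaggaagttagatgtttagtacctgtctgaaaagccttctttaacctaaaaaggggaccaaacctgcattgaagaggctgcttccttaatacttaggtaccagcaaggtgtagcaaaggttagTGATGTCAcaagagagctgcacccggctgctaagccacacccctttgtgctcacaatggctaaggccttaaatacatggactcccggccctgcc

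The motifs were searched on both strands. The palindromic CRE, TGACGTCA, was found in the Kif17 window from 86 to 79 bases before the start, and in 1.55% of 32851 such windows. The looser form TGANGTCA (TGACNTCA on the other strand), which includes the first, occurred in 7.49% of windows. It was found in the first of the 2 Fhl5 windows as TGAAGTCA, from 72 to 65 bases before the start, and in the Tnp1 window as TGATGTCA, from 94 to 87 bases before the start. The 13-letter X-box, GTTNC and GNAAC separated by 3 bases, was present in 0.831% of windows and was found in the Kif17 window as GTTGCCCAGCAAC and in the Gtf2a1l window as GTTGCGCAGCAAC. The 14-letter form, with 4 bases between, was in 0.843% of windows and in none of the members' windows. The TATA box sequence TATAAA was in 12.4% of windows and, among the members, in that of Taf7l only. The annotated starts used here for Kif17, Sox5, Tbpl1 and Fhl5 lie inside the spans that the deposited table gives for these genes. Of the 5 windows read from the list of genes known to need CREM or to hold a CRE, those of Tnp1 and Prm1 held a CRE-type match, that of Prm2 only a TATA box sequence, and those of Tnp2 and Smcp none of these motifs. These matches describe letters in the windows and do not show binding.

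Values are in RPM, a read share on a fixed total per library, which compare 1 gene between libraries but not genes of different length. The libraries held 5774112 and 33853604 reads (heterozygous 1 and 2) and 21160061 and 11268909 reads (labelled knockout 1 and 2), as recovered from the steps of the values. Across the 10 genes and 4 libraries the read counts ran from 171 to 21742. The least covered value, Taf7l in heterozygous 1, was 29.6 RPM with an exact Clopper-Pearson 95% interval of 25.3 to 34.4 RPM. Intervals of this kind cover counting error only, since reads after PCR are not independent molecules. Wfdc15a itself was at 121 and 85.2 RPM (heterozygous) against 82.6 and 59.5 RPM (labelled knockout) (limma adjusted p = 0.647), and this gene-level sum would not reveal a partial deletion. Among 693 pairs in which 1 listed gene lay wholly inside the span of another, and had 20 or more reads in every library, the inner gene had more reads than the outer in 0 pairs. Of these pairs, 516 were on opposite strands. A count over the whole span of a gene, introns and both strands included, would give this.

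All 10 regulators were present in every library, at 28.9 to 731 RPM. None of them passed the test between the groups, which were compared with limma (moderated linear models on the deposited log2 RPM, Benjamini-Hochberg adjusted over 15888 tested genes). Of all tested genes 0.0% passed as well (0 of 15888), and at an unadjusted p under 0.05, which no member reached, the share was 8.08% (6.21% higher and 1.87% lower in the libraries labelled knockout). By position alone, the groups did not overlap for 4 of the 10 genes (38.5% over all tested genes). Sox5 and Taf7l were higher in both libraries labelled knockout (23.5% over all tested genes), Kif17 and Rfx2 were lower in both (15.0%), and the remaining 6 overlapped. With median-ratio scaling the split at p under 0.05 was 842 higher and 441 lower genes, and with quantile normalization 672 and 483, against 986 and 297 as deposited. The median log2 difference of the 10 was -0.01, against 0.07 for all tested genes.

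**Figure D1:**
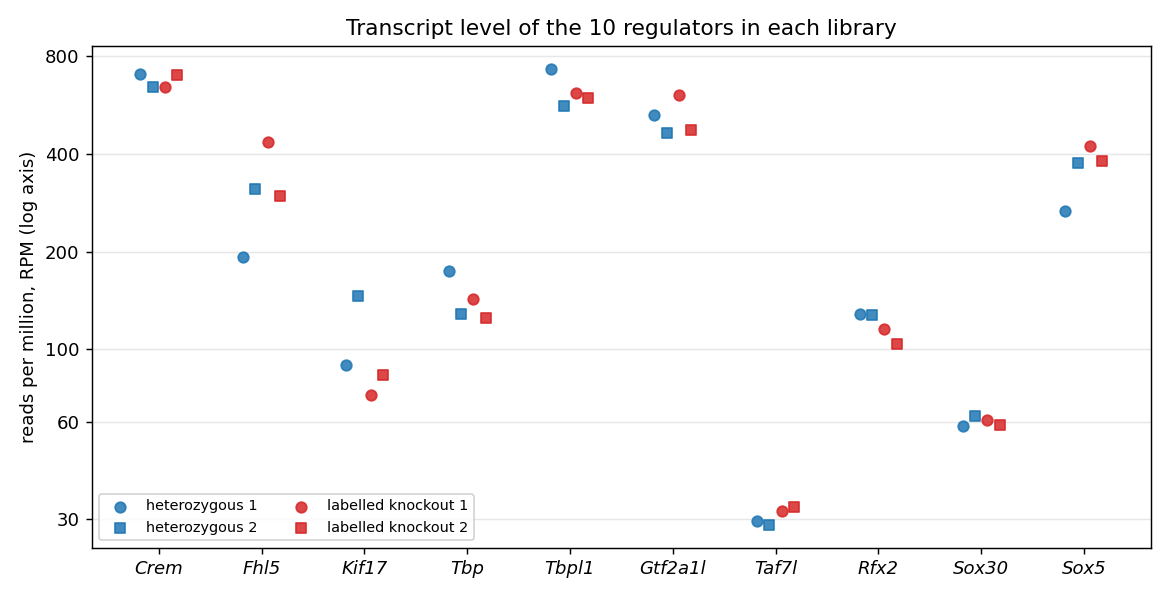
RPM (log axis) of the 10 regulators, 1 point per library, with circles for replicate 1 and squares for replicate 2, heterozygous in blue and labelled knockout in red. Crem and Sox30 lie close together in all 4 libraries, while Fhl5 spans from 193 to 434 RPM.

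Crem, on chromosome 18 (3266048 to 3337748, minus strand), was at 706 and 642 RPM (heterozygous) against 645 and 699 RPM (labelled knockout). Each group held 1 of the 2 lower values. The log2 difference was -0.004 (SE 0.19, 95% confidence interval -0.42 to 0.41, limma adjusted p = 0.999). The gene is known for activator and repressor forms, GENCODE M21 annotates 39 transcripts for it, and a value summed over the gene does not separate them. The highest library was 1.10-fold the lowest. Over 5347 tested genes with a mean of at least 30.8 RPM, the mean of the lowest member, the median of this ratio was 1.46, and 7 of the 10 regulators were below it. The 5347 genes share only this lower limit with the regulators and were not matched to them by level.

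Fhl5, which encodes the LIM-only partner that activates CREM, lies on chromosome 4 (25199908 to 25242876, minus strand). It was at 193 and 312 RPM (heterozygous) against 434 and 297 RPM (labelled knockout). Heterozygous 1 was the lowest and knockout 1 the highest. The log2 difference was 0.55 (SE 0.28, 95% interval -0.07 to 1.16, limma adjusted p = 0.634). It was 0.89 without heterozygous 2, and there the gene passed (limma adjusted p = 0.0398), but 0.20 without heterozygous 1 (adjusted p = 0.826). Gm11906, a transcript annotated on the opposite strand across the whole gene, was listed at 217, 328, 452 and 329 RPM in the same order of libraries. Fhl5 amounted to 89.1% to 96.0% of it in each library, and their annotated exons share 0 bases. A count over whole spans and both strands, as described above, would place the reads of Fhl5 in the Gm11906 row too. The 2 rows can therefore not be read as 2 transcripts that vary together. How far the 2 rows share reads was not tested.

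Kif17, the motor that moves FHL5 out of the nucleus, lies on chromosome 4 (138250435 to 138301967, plus strand). It was at 89.7 and 146 RPM (heterozygous) against 72.3 and 83.3 RPM (labelled knockout). The groups did not overlap, but heterozygous 1 was nearer to them than to heterozygous 2. The mean was 118 ± 39.7 RPM (SD, n = 2) against 77.8 ± 7.83 RPM (SD, n = 2), a log2 difference of -0.56 (SE 0.29, 95% interval -1.20 to 0.08, limma adjusted p = 0.635). Without heterozygous 2 the difference was -0.21 and without heterozygous 1 it was -0.91 (limma adjusted p = 0.760 and 0.0725). The value sums all forms of the gene, and the testis form was not told apart from the others. Sh2d5, which overlaps the 5′ part of the Kif17 span on the same strand, was at 0.756 to 1.86 RPM.

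The LIM-only family was dominated by another member. Fhl4, a testis gene of the family, was at 3087 and 3143 RPM (heterozygous) against 2980 and 3111 RPM (labelled knockout). Per kilobase of annotated exon its level was 867 ± 19.9 (SD over 4 libraries), above Fhl5 at 264 ± 84.1. Fhl2, best known from heart, was at 1.39 and 0.591 RPM (heterozygous) against 7.04 and 8.34 RPM, and its log2 difference of 3.08 did not pass (SE 0.68, limma adjusted p = 0.327). Fhl1 was at 0.520 to 2.04 RPM, and Fhl3 was under the filter on low values. Of the 4 tested genes of this family 0 passed, 1 lay higher and 0 lower without overlap (23.5% and 15.0% over all tested genes).

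Among the relatives, coactivators and kinases of the cAMP pathway, Crem was second by exon length and first by coding length. Creb3l4, a membrane-anchored CREB relative of spermatids, was at 178 ± 44.6 RPM per kilobase (SD over 4 libraries), Crem at 114 ± 5.78, and Creb1, the widely expressed relative, at 0.423 ± 0.184. Per kilobase of coding sequence the order turned, with Crem at 487 and Creb3l4 at 269 RPM. Of the 19 tested genes of this list 0 passed, 5 lay higher and 3 lower without overlap (23.5% and 15.0% over all tested genes), and the median log2 difference was 0.00, with 0.075 without heterozygous 1 and -0.036 without heterozygous 2. The 4 with the smallest p were Ep300, an acetyltransferase coactivator, Prkar2a and Prkar1b, regulatory subunits of protein kinase A, and Creb3l4. Ep300 was at 28.2 and 18.3 RPM against 37.5 and 52.3 RPM (log2 difference 0.96, SE 0.34, limma adjusted p = 0.565). Prkar2a was at 84.2 and 163 RPM against 52.1 and 77.6 RPM (log2 difference -0.88, SE 0.34, limma adjusted p = 0.586). Prkar1b was at 30.7 and 33.6 RPM against 21.03 and 18.3 RPM. These genes are not members, and no member of the set of 10 had an unadjusted p as small. Creb3l4 was at 195 and 298 RPM against 369 and 332 RPM, lowest in heterozygous 1 like Fhl5. Tbata, a testis protein gene whose product is known to bind the KIF17 form of spermatids, was lowest in the same library, at 300 RPM beside 478, 557 and 489 RPM. Of the 6 genes in the list of KIF17 and kinesin-2 partners, 0 passed, 1 lay higher and 1, Kif17, lower (23.5% and 15.0% over all tested genes). Kif3a and Kifap3, subunit genes of kinesin-2, overlapped between the groups, Kif3a at 156, 120, 128 and 121 RPM and Kifap3 at 669, 589, 623 and 700.1 RPM. Kif3c, a further kinesin-2 motor gene, was at 0 to 3.17 RPM.

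The genes known to need CREM, or to hold a CRE in their promoter, were read beside Crem. This list overlaps the genes of elongating spermatids, and earlier results on its protamine and transition protein members were known when it was drawn up. Of its 11 genes 0 passed, 4 had an unadjusted p under 0.05, all lower, and 5 lay lower without overlap, with 0 higher. The shares over all tested genes were 1.87% lower and 6.21% higher at that p, and 15.0% lower and 23.5% higher without overlap. The 4 genes with a p under 0.05 were Tnp1, Tnp2, Prm1 and Prm2, and no other gene of the list reached it. Since these are the protamine and transition protein genes known beforehand, the count restates earlier results and says nothing further on genes that need CREM. The list's median log2 difference was -0.44, beside -0.004 for Crem. This median includes the same 4 genes and was not computed without them, so it gives no separate reading on genes that need CREM. The median was -0.76 without heterozygous 1, -0.08 without heterozygous 2 and -0.24 without knockout 2.

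Tnp1, the transition protein gene whose promoter is shown above, was at 418 and 800 RPM (heterozygous) against 347 and 231 RPM (labelled knockout) (log2 difference -1.03, SE 0.31, limma adjusted p = 0.478). Tnp2, the second transition protein gene, was at 393 and 582 RPM (heterozygous) against 173 and 127 RPM, with the smallest p of the list (log2 difference -1.69, SE 0.26, limma adjusted p = 0.222). The protamine genes, whose products replace the transition proteins on sperm DNA, were placed alike. Prm1 was at 529 and 931 RPM (heterozygous) against 308 and 223 RPM, and Prm2 at 624 and 1387 RPM against 618 and 525 RPM (limma adjusted p = 0.295 and 0.607). Smcp, a gene of the sperm mitochondrial capsule, was at 457 and 753 RPM against 433 and 432 RPM. In Smcp, Prm1, Prm2 and Tnp1 heterozygous 2 stood highest and heterozygous 1 was, in RPM, nearer to the libraries labelled knockout. Ldhc, the sperm lactate dehydrogenase gene, showed no such order, at 10396, 10282, 10673 and 9353 RPM. Camk4, which holds the CREM-driven calspermin transcript, was at 42.1 and 120 RPM against 95.3 and 105 RPM, lowest in heterozygous 1. Ace, whose testis form starts at an internal promoter, was at 197 and 367 RPM against 302 and 255 RPM, again lowest in heterozygous 1. The summed level of 12 markers of elongating spermatids, 7 of which are also among these 11 genes, was 7049 and 12104 RPM against 8244 and 7783 RPM. Its part in these differences was not tested.

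**Figure D2:**
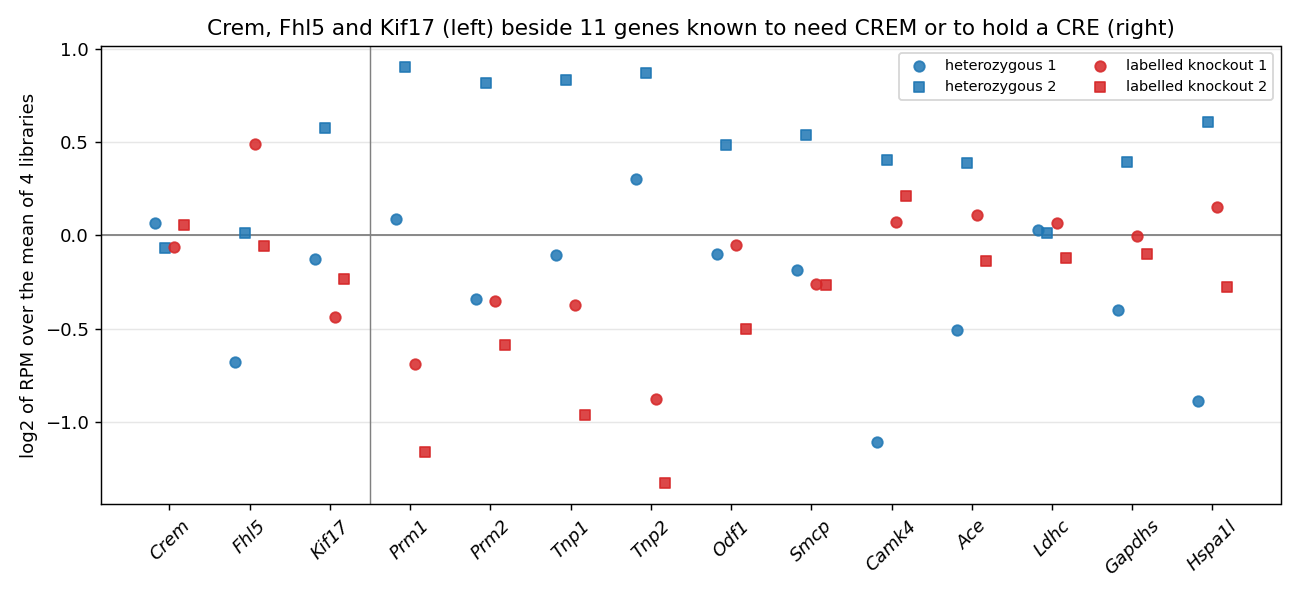
Log2 of RPM over the mean of the 4 libraries for Crem, Fhl5 and Kif17 (left of the line) and 11 genes known to need CREM or to hold a CRE (right), 1 point per library. Crem stays near 0 in every library, and heterozygous 2 is the highest library for 10 of the 11 genes on the right.

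The TBP family was represented by Tbpl1 and Tbp, while the oocyte member Tbpl2 was at 0 reads in each heterozygous library and at 0.284 and 0.621 RPM against them. Tbpl1, on chromosome 10 (22703879 to 22731938, minus strand), was at 731 and 560 RPM (heterozygous) against 614 and 596 RPM (labelled knockout). Tbp, on chromosome 17 (15499888 to 15528379, plus strand), was at 175 and 129 RPM against 143 and 125 RPM. Both genes were highest in heterozygous 1, and both overlapped between the groups. The log2 differences were -0.08 for Tbpl1 (SE 0.20, limma adjusted p = 0.947) and -0.17 for Tbp (SE 0.25, limma adjusted p = 0.901). Within each library the ratio of the pair was steady. Per kilobase of annotated exon, Tbpl1 was 17.4-fold and 18.03-fold Tbp in the heterozygous libraries and 17.8-fold and 19.8-fold in those labelled knockout. The mean of the 4 libraries was 18.2-fold by exon length and 7.66-fold by coding length. The ratio does not depend on the scaling of a library, and its mean log2 value differed by 0.09 between the groups (exact permutation test of 2 against 2 libraries, two-sided p = 0.667, where 0.333 is the smallest p this design allows).

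Gtf2a1l, the germ cell TFIIA gene on chromosome 17 (88668660 to 88715152, plus strand), was at 526 and 463 RPM (heterozygous) against 605 and 472 RPM (labelled knockout). The groups overlapped (log2 difference 0.12, SE 0.21, limma adjusted p = 0.922). Its widely expressed relative Gtf2a1 was at 35.2 and 28.0 RPM against 40.6 and 41.4 RPM. Gtf2a1l was 49.5-fold and 54.7-fold Gtf2a1 per kilobase in the heterozygous libraries, and 49.2-fold and 37.7-fold in those labelled knockout. The mean was 47.3-fold by exon length and 11.6-fold by coding length. The values of the first library labelled knockout and the first heterozygous library were nearly equal (exact permutation p = 0.333, two-sided, the smallest possible). The small TFIIA subunit gene Gtf2a2 was at 226 to 270 RPM in all 4 libraries.

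Taf7l, on chromosome X (134460118 to 134476490, minus strand), was at 29.6 and 28.9 RPM (heterozygous) against 31.9 and 32.8 RPM (labelled knockout). The groups did not overlap, and the mean of those labelled knockout was 1.11-fold the heterozygous mean. The difference did not pass (log2 difference 0.15, SE 0.30, limma adjusted p = 0.930), and the counting intervals of single libraries overlapped. Taf7, its widely expressed relative, was at 5.72 and 5.88 RPM against 4.73 and 5.06 RPM. Per kilobase Taf7l was 7.62-fold and 7.22-fold Taf7 in the heterozygous libraries and 9.94-fold and 9.55-fold in those labelled knockout, without overlap (exact permutation p = 0.333, two-sided, the smallest possible). Crem against Creb1 gave the widest ratio of the 4 pairs, 396-fold and 357-fold in the heterozygous libraries and 279-fold and 172-fold in those labelled knockout (exact permutation p = 0.333, two-sided). The mean was 287-fold by exon length and 102-fold by coding length for Crem:Creb1, and 8.50-fold and 4.10-fold for Taf7l:Taf7. Crem itself was within 1.10-fold in the 4 libraries, and Creb1 was at 4.16 and 4.19 RPM against 5.39 and 9.50 RPM. Few reads lie behind the lower gene of these 2 pairs. Creb1 had 24 and 142 reads (heterozygous) against 114 and 107, and Taf7 had 33 and 199 against 100 and 57. Their counting error is thus larger than that of Crem and Taf7l. Benjamini-Hochberg adjusted over the 4 pairs, these exact permutation p-values were 0.444, and 0.667 for Tbpl1:Tbp.

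**Figure D3:**
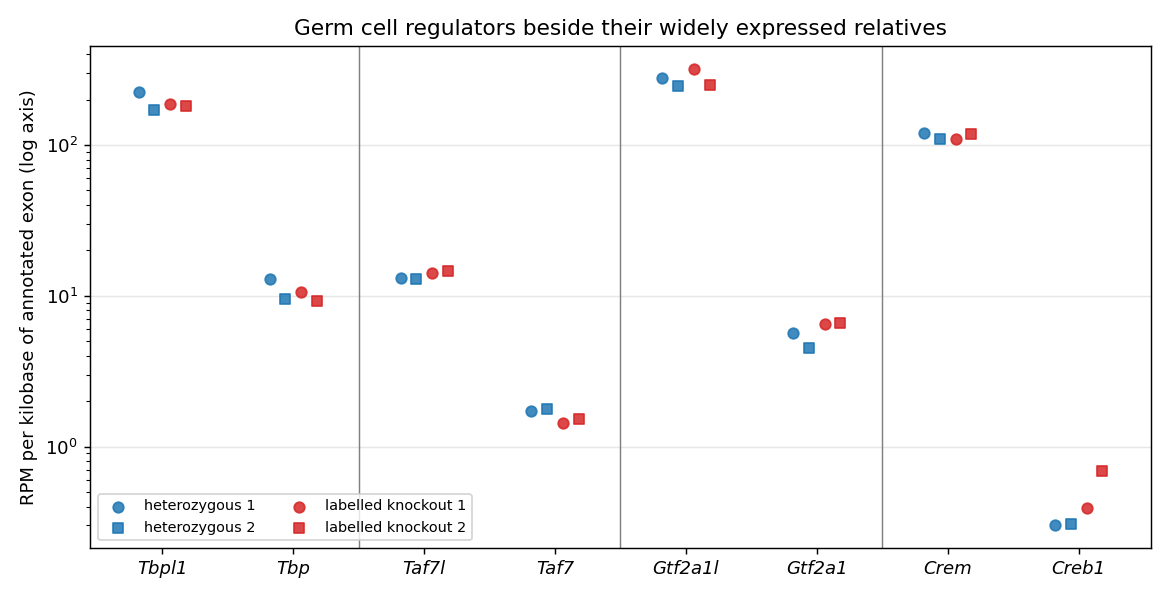
RPM per kilobase of annotated exon (log axis) for 4 pairs of a germ cell regulator and its widely expressed relative, 1 point per library, heterozygous in blue and labelled knockout in red. In each pair the germ cell gene lies above its relative in all 4 libraries, with Tbpl1 at 171 to 224 and Tbp at 9.19 to 12.9.

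Of the 23 tested genes of TFIID, the TBP family and TFIIA, 0 passed, 3 lay higher and 4 lower without overlap (23.5% and 15.0% over all tested genes), and the median log2 difference was -0.08, which turned to 0.11 without heterozygous 1. By exon length Taf9, a subunit gene of TFIID and of the SAGA coactivator, stood at 298 ± 37.7 RPM per kilobase (SD over 4 libraries) and Gtf2a1l at 274 ± 34.6, within their SDs. By coding length Tbpl1 was first at 1120 RPM per kilobase, before Taf9 at 797 and Gtf2a1l at 368. Taf2, whose product helps TFIID to bind core promoters, had the smallest p, at 19.1 and 10.9 RPM against 26.4 and 29.5 RPM (log2 difference 0.96, SE 0.37, limma adjusted p = 0.586). Taf1, the largest TFIID subunit, was at 6.41 and 0.679 RPM against 7.04 and 5.68 RPM, lowest in heterozygous 2. Taf9b, a relative of Taf9, was at 22.5 and 29.95 RPM against 44.2 and 29.6 RPM, with the groups overlapping.

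Rfx2, on chromosome 17 (56775897 to 56831008, minus strand), was at 128 and 127 RPM (heterozygous) against 116 and 104 RPM (labelled knockout). The heterozygous values were nearly equal, and both others lay below them, at 0.861-fold in the means. The difference did not pass (log2 difference -0.22, SE 0.24, 95% interval -0.74 to 0.30, limma adjusted p = 0.850). It ran from -0.30 to -0.14 in 13 alternatives, most of which could not turn the direction of groups that do not overlap. Rfx1, a relative that binds the same element, lay lower too, at 59.7 and 75.6 RPM against 52.8 and 55.7 RPM, and Rfx4 lay higher, at 176 and 211 RPM against 237 and 220 RPM. Rfx3 overlapped, at 175 and 143 RPM against 120 and 154 RPM. Rfx5, a regulator of class II antigen presentation genes, was low, at 9.87 and 6.68 RPM against 4.63 and 4.17 RPM. B230398E01Rik, a listed gene that overlaps it, stood at 54.4% to 80.5% of the Rfx5 value. Reads shared by these overlapping genes were not told apart. Of the 8 tested family genes 0 passed, 1 lay higher and 3 lower without overlap (23.5% and 15.0% over all tested genes). The median log2 difference was -0.22, and -0.060 without knockout 2. By exon length Rfx8 and Rfx4 stood above Rfx2 (66.3 ± 10.2, 44.6 ± 5.45 and 16.2 ± 1.56 per kilobase, SD over 4 libraries).

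Sox30, on chromosome 11 (45980310 to 46017994, plus strand), had the narrowest spread of the 10, at 58.2 and 62.2 RPM (heterozygous) against 60.6 and 58.7 RPM (labelled knockout). Its highest library was 1.07-fold its lowest, and the groups overlapped (log2 difference -0.01, SE 0.26, limma adjusted p = 0.995). Sox5, on chromosome 6 (143828425 to 144781977, minus strand), was at 266 and 376 RPM against 423 and 381 RPM. The groups did not overlap, although heterozygous 2 and knockout 2 were close. The difference of 0.34 on the log2 scale did not pass (SE 0.23, 95% interval -0.16 to 0.85, limma adjusted p = 0.720), and it was 0.10 without heterozygous 1 and 0.59 without heterozygous 2. The Sox5 span encloses 6 other listed genes, which together were at 11.1 to 27.8 RPM. Sox6, which acts with SOX5 on flagellar gene promoters, was at 370 and 317 RPM against 245 and 328 RPM, lowest in knockout 1, where Sox5 was highest. Only 5 of 19 SOX genes passed the filter on low values, and of these 0 passed the test, 1 lay higher and 1, Sox13 with at most 2.25 RPM, lower (23.5% and 15.0% over all tested genes). Sox17 was at 2.75 to 8.66 RPM.

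Of 12 genes known to be bound or driven by RFX2, SOX5 or SOX30, 0 passed. Without overlap 1 lay higher and 2 lower (23.5% and 15.0% over all tested genes), and the lower share is near that over all genes. The median log2 difference was -0.04, and -0.12 without heterozygous 1. The 2 lower ones were Ift88, an intraflagellar transport gene, at 228 and 179 RPM against 147 and 162 RPM, and Hydin, a gene of the central pair of the axoneme, at 387 and 361 RPM against 294 and 299 RPM (log2 differences -0.39 and -0.33, SE 0.23 and 0.20, limma adjusted p = 0.686 for each). Spag16, another central pair gene, was highest in heterozygous 1, at 769 RPM beside 529, 459 and 617 RPM. Dync2h1, the motor of retrograde transport, had its highest value there as well, at 386 RPM beside 255, 240 and 286 RPM.

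**Figure D4:**
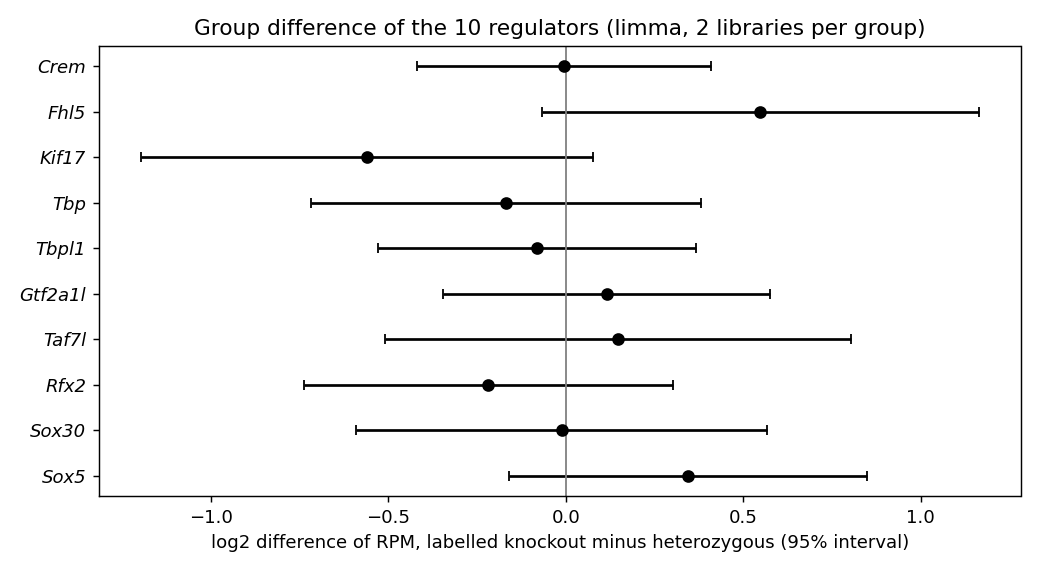
Log2 difference of RPM between libraries labelled knockout and heterozygous libraries for the 10 regulators, with 95% confidence intervals from limma (2 libraries per group). Every interval includes 0, and the widest differences are those of Fhl5 (0.55) and Kif17 (-0.56).

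The 10 regulators were also set in order by RPM per kilobase of annotated exon. As the nested genes show, the values may hold reads from introns and from the other strand, so these levels and the ratios between relatives are not pure exon levels, and how far such reads move them was not tested. Gtf2a1l (274 ± 34.6 RPM per kilobase, SD over 4 libraries), Fhl5 (264 ± 84.1), Tbpl1 (191 ± 22.7) and Crem (114 ± 5.78) came first. Sox5 (25.2 ± 4.66), Kif17 (21.3 ± 7.18), Sox30 (20.002 ± 0.613), Rfx2 (16.2 ± 1.56), Taf7l (13.7 ± 0.838) and Tbp (10.5 ± 1.66) followed. Neighbours in this order that did not differ beyond their SDs were Gtf2a1l and Fhl5, Fhl5 and Tbpl1, Sox5 and Kif17, and Kif17 and Sox30. The order depends on the length used, because Tbp has 13576 bases of annotated exon but 972 of coding sequence. Per kilobase of coding sequence Tbpl1 was first at 1120, Crem followed at 487, and Tbp, at 147, was above Sox30 at 25.6 and Taf7l at 21.3.

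The genes whose profile over the 4 libraries was most like that of Crem were Ankrd36, Lrp1b and Efhd1, by the root mean square difference of centred log2 RPM among 6353 genes with at least 10 RPM in every library. The differences were 0.0049, 0.0069 and 0.0090, against a median of 0.233 over these genes. Ankrd36 was at 483 and 443 RPM (heterozygous) against 444 and 481 RPM (labelled knockout). With 4 libraries and so small a range, this likeness describes these values only.

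The cell type labels were read against marker lists, in sums of RPM. The 12 round spermatid markers summed to 4171 and 4643 RPM (heterozygous) against 4865 and 4597 RPM (labelled knockout), with 0 of them at 0 in any library. Those of spermatocytes (13 genes) summed to 1331 and 1024 RPM against 1130 and 1280 RPM, highest in heterozygous 1. The 15 macrophage markers summed to 37.2 and 38.6 RPM against 381 and 128 RPM. Of the 14 tested, 13 lay higher without overlap and 0 lower (23.5% and 15.0% over all tested genes). In the heterozygous libraries 7 and 2 of these 15 were at 0, with Tyrobp at 0 in both. The 11 markers of spermatogonia summed to 90.6 to 119 RPM against 130 to 141 RPM, the 10 of Sertoli cells to 19.9 to 37.1 RPM against 56.0 to 59.8 RPM, with Amh at 0 throughout, and the 7 of Leydig cells to 3.19 to 6.58 RPM against 16.7 to 37.7 RPM. Jak3, a listed gene that overlaps the Leydig marker Insl3, stood at 133% to 1575% of the Insl3 value. Reads shared by overlapping genes were not told apart in any of these sums. The 10 peritubular and endothelial markers summed to 29.6 to 124 RPM against 104 to 114 RPM. Higher and lower without overlap were 4 and 0 of 12 tested round spermatid markers and 0 and 6 of 12 of elongating spermatids. The counts were 3 and 1 of 13 for spermatocytes, 4 and 1 of 10 for spermatogonia and 5 and 0 of 7 for Sertoli cells. They were 3 and 0 of 4 for Leydig cells and 2 and 1 of 8 for the peritubular and endothelial list. The part of these other cells and of the stage mix in the values of the 10 regulators was not tested, and fewer cells of a type cannot be told apart from less RNA per cell.

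**Figure D5:**
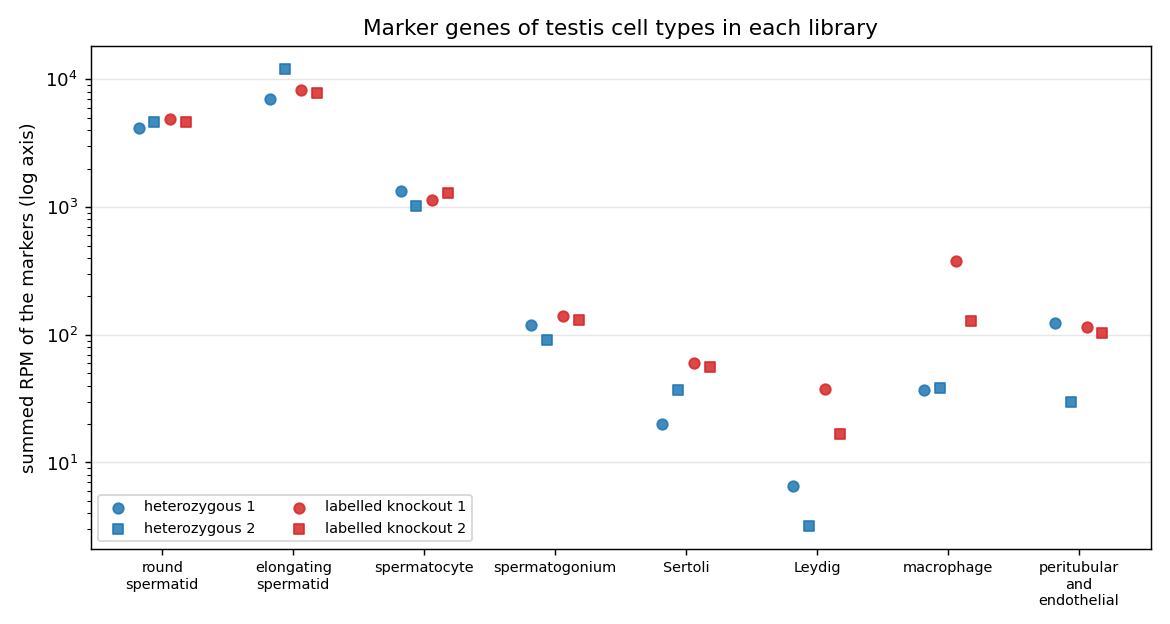
Summed RPM (log axis) of marker genes for 8 testis cell types or stages, 1 point per library, heterozygous in blue and labelled knockout in red. Round spermatid markers are at 4171 RPM or more in every library, and macrophage markers are at 37.2 and 38.6 RPM in the heterozygous libraries against 381 and 128 RPM.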

How the data were processed

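Per the labels' protocols, sorted round spermatids were amplified with Smart-seq2 (15 PCR cycles) and tagmented with Nextera XT, so neither strand nor single molecules are marked. The submitters' processing notes name HISAT2 2.1.0, Trim Galore 0.6.6, FastQC 0.11.8 and mm10, while the sources used here do not say how reads were counted or on which annotation. Log2 RPM values were deposited by the authors, scaled to each library's total, for 25965 genes. Values stepped by whole reads, with the lowest value taken as 0.9 of a read, and 99.68% to 99.99% of the other values were whole within 0.01.

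Sample titles gave the groups. The 15888 genes reaching 1 RPM in 2 or more libraries were tested on the deposited log2 values with limma 3.58.1 (R 4.3.3), with a mean-variance trend, two-sided, at an adjusted p of 0.05. Groups do not overlap where both values of 1 lie above both of the other. Levels per kilobase used union exon lengths of GENCODE M21, whose positions equal the table's for 9 of the 10 genes. The code was tested on simulated data. SciPy 1.17.1 under Python 3.11.15 gave the exact tests.

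The 10 members and the 18 lists were chosen with earlier results of these data known, and the motifs after the promoter sequences had been read. Of 198 listed symbols 194 matched as written and 4 by an older symbol. Named genes are all members, up to 4 further genes with the smallest p per list, 3 widely expressed relatives and the 3 profiles nearest to Crem. Others named were chosen after their values were seen. Alternatives were 2 scalings, log2(RPM + 1), no filter and 5 RPM, no trend, array weights, voom on recovered reads, leaving out each library, a replicate block and other lengths.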

Additional observations from a re-analysis of the deposited data

How the results depend on the processing

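None of the 10 regulators passed in 12 of 13 alternatives, and Fhl5 alone passed in the fit without heterozygous 2 (adjusted p = 0.0398, limma). Over all genes 0 passed, with 986 higher and 297 lower at an unadjusted p under 0.05 in limma, and voom on the recovered reads also passed 0. Passing genes numbered 1 higher with log2(RPM + 1), and 155 higher and 25 lower without a filter. Leaving out 1 library gave 0 to 468 higher and 0 to 90 lower, with 395 and 47 without heterozygous 1 and 468 and 90 without heterozygous 2, where the lone library is assumed to vary like the other group. The replicate block passed 58 higher and 8 lower genes and 0 of the 10 regulators. The labels give same-numbered samples only a number in common. Their deviations correlated at -0.076 across genes, which cannot show whether they share more. The block leaves a difference of group means unchanged by arithmetic, so the 4 ratio differences stayed at 0.09, 0.39, -0.27 and -0.78.

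Fhl5, Kif17, Rfx2, Sox5 and Taf7l kept their direction in 13 of 13 alternatives, and the other 5 did not. Most of these outcomes were fixed in advance. The filter settings, no trend, array weights and the replicate block leave the estimate of a gene as it is. For Kif17, Rfx2, Sox5 and Taf7l the groups do not overlap, so leaving out a library could not turn the direction either. Crem was at 0.031 with quantile normalization and 0.0078 with voom, and Sox30 at 0.039 with quantile normalization. With 1 library left out, Crem ran from -0.072 to 0.064 (above 0 without heterozygous 1 or knockout 1), Sox30 from -0.060 to 0.037 (above 0 without heterozygous 2 or knockout 2), Tbpl1 from -0.27 to 0.11 and Tbp from -0.39 to 0.052 (above 0 without heterozygous 1), and Gtf2a1l from -0.063 (without knockout 1) to 0.29. The cause was not tested. Ratio differences kept their direction with each library left out, from 0.010 to 0.16 for Tbpl1:Tbp, 0.35 to 0.43 for Taf7l:Taf7, -0.46 to -0.079 for Gtf2a1l:Gtf2a1 and -1.13 to -0.43 for Crem:Creb1. The mean log2 ratios per kilobase of 4.19, 3.09, 5.56 and 8.16 became 2.94, 2.03, 3.53 and 6.67 with coding length, and Tbpl1:Tbp became 4.29 with the longest transcript. List medians moved by more than the spread between replicates in 29 of 117 recomputations. With 2 libraries a group, the 95% limits of the 10 genes reached -1.20 (Kif17) and 1.16 (Fhl5) on the log2 scale. For Taf7l the counting interval of heterozygous 1 (25.3 to 34.4 RPM from 171 reads) covers its values in all 4 libraries. That of the deeper heterozygous 2 (27.1 to 30.7 RPM) lies below the value of knockout 1 (31.9 RPM). Whether depth limits the detection of this difference was not tested.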

Other observations

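Other regulators of meiotic and haploid germ cells were read as a further list of 12 genes, chosen with earlier results known. Of these 0 passed with limma, 2 lay higher and 3 lower without overlap (23.5% and 15.0% over all tested genes), and the median log2 difference was -0.10, and 0.004 without heterozygous 1. Papolb, the testis poly(A) polymerase gene, was at 709 and 656 RPM (heterozygous) against 512 and 642 RPM (labelled knockout), and Radil, a listed gene that overlaps it, stood at 105.0% to 105.4% of its value in each library. Mybl1, a regulator of meiotic genes in spermatocytes, was at 11.3 and 7.83 RPM against 13.42 and 17.0 RPM (log2 difference 0.69, SE 0.39, limma adjusted p = 0.667). Zfy2, a Y-linked zinc finger gene of spermatids, was at 29.96 and 23.99 RPM against 15.0 and 25.9 RPM. Rfx4, also of this list, is described with its family.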
